A study of Mus musculus with 12 samples.

Results

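The genes described here act on the matrix around cells. They are 5 matrix metalloproteinases (Mmp2, Mmp3, Mmp9, Mmp13 and Mmp14), the 3 tissue inhibitors Timp1, Timp2 and Timp3, and the urokinase pair Plau and Plaur, measured in C790 mouse melanoma cells. They were taken by name, in a choice made with earlier results of these data known. All 10 were present among the 18193 genes with a probe set of their own. Probe sets annotated to these genes alone numbered 23 of 34945. Where several probe sets read a gene, the brightest over all arrays gives its value, on the log2 scale, and the others are given beside it.

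C790 cells carry an Nras mutation. In all 4 groups the cells had been given the same lentiviral vectors, which hold Oct4, Sox2, Klf4 and a blasticidin resistance gene under a tetracycline-responsive element, together with a constitutively expressed activator coupled to mCherry. Partially reprogrammed cells ("+dox") were kept with doxycycline and selected with blasticidin, and control cells ("−dox") held both vectors but were grown without doxycycline. Each was analysed at day 20 after 72 h with trametinib, an inhibitor of the kinase MEK, or with the solvent DMSO, on 3 arrays per group. The groups are thus +dox trametinib, +dox DMSO, −dox trametinib and −dox DMSO, and the comparisons ask what MEK inhibition does in each cell state and what partial reprogramming does under each treatment. The trametinib concentration used for the arrays is not given in the sources used here. A cell line transduced and selected as a pool is a limited model of a tumour, and doxycycline itself, the selection and the 3 factors cannot be told apart in the +dox groups. The labels do not say that the arrays of a group came from separate cultures, so a p-value here reflects the spread between arrays and no more.

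Matrix metalloproteinases are zinc proteases that cut collagens and other matrix proteins, and most are made as inactive proenzymes. TIMPs block their active site. TIMP2 also has a part in activation, since a complex of MMP14 and TIMP2 at the cell surface binds pro-MMP2. Urokinase, the product of Plau, is a serine protease that turns plasminogen into plasmin, and Plaur encodes the receptor that holds it at the cell surface. In human and mouse tumour cells several of these genes are known targets of the MEK and ERK cascade through AP-1 and ETS factors.

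The arrays carry no detection calls, so a background level of 4.88 was set from 83 probe sets of receptors for smell, taste and pheromones. Dusp6, an ERK phosphatase that ERK induces, averaged 4.96 in +dox trametinib and 11.86 in +dox DMSO cells, and 3.95 in −dox trametinib and 12.06 in −dox DMSO cells, which goes with the drug labels. The vector genes gave no such check of the dox labels. Under DMSO, Sox2 averaged 5.87 in +dox and 7.40 in −dox cells (limma, adjusted p = 0.0909), Klf4 9.30 in +dox and 9.45 in −dox cells (0.798) and Pou5f1, which is Oct4, 5.45 in +dox and 4.63 in −dox cells (0.0155). Whether these probe sets read the vector transcripts was not tested. Of 10 melanocyte markers only Mitf, Pmel and Sox10 were above the background level in any group, and the pigment genes Mlana, Tyr, Tyrp1 and Dct were under it in all 4 groups. Of 10 fibroblast markers 5 or 6 were above the level in each group, of 10 leukocyte markers 4 or 5, of 5 endothelial markers 1 or 2 and of 5 keratinocyte markers 1 or 2. The defining genes Ptprc, Pecam1 and Krt14 of the last 3 lists were under it in all 4 groups, while others read up to 7.79 (Cd68), 5.46 (Kdr) and 7.48 (Trp63) as a group mean. The −dox DMSO replicate 1 array stood apart, with an actin 3′ minus 5′ difference of 0.31, against 0.06 to 0.15 on the other 11 arrays, and a mean correlation of 0.982 with its own group, against 0.987 to 0.994. Single arrays that change a call are named beside the result.

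The genes that rose with trametinib were TIMPs and, in −dox cells, Mmp14. In +dox cells Timp2 and Timp3 rose, Plaur fell and the test was not passed by 7 of the 10 genes. In −dox cells Mmp14, Timp1, Timp2 and Timp3 rose, none fell and 6 did not pass. The test was limma over all 12 arrays, with a gene called at an adjusted p under 0.05. With trametinib in +dox cells 26.2% of all genes passed, 13.8% higher and 12.5% lower, so that 3 of 10 is a share near that of all genes. In −dox cells 22.4% passed, 11.6% higher and 10.8% lower, against 4 of 10 genes here, all higher. With dox 1 of the 10 genes passed under each treatment, a count that does not set them apart from all genes. Under DMSO Timp2 fell and the other 9 did not pass, where 6.15% of all genes passed, 2.87% higher and 3.28% lower. Under trametinib Timp1 fell and 9 did not pass, where 3.37% passed, 1.95% higher and 1.42% lower. The median change of the 10 genes was -0.003 for trametinib in +dox cells, 0.05 for trametinib in −dox cells, 0.11 for dox under DMSO and -0.45 for dox under trametinib, beside medians over all genes of 0.02, 0.06, 0.01 and -0.02.

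**Figure D1:**
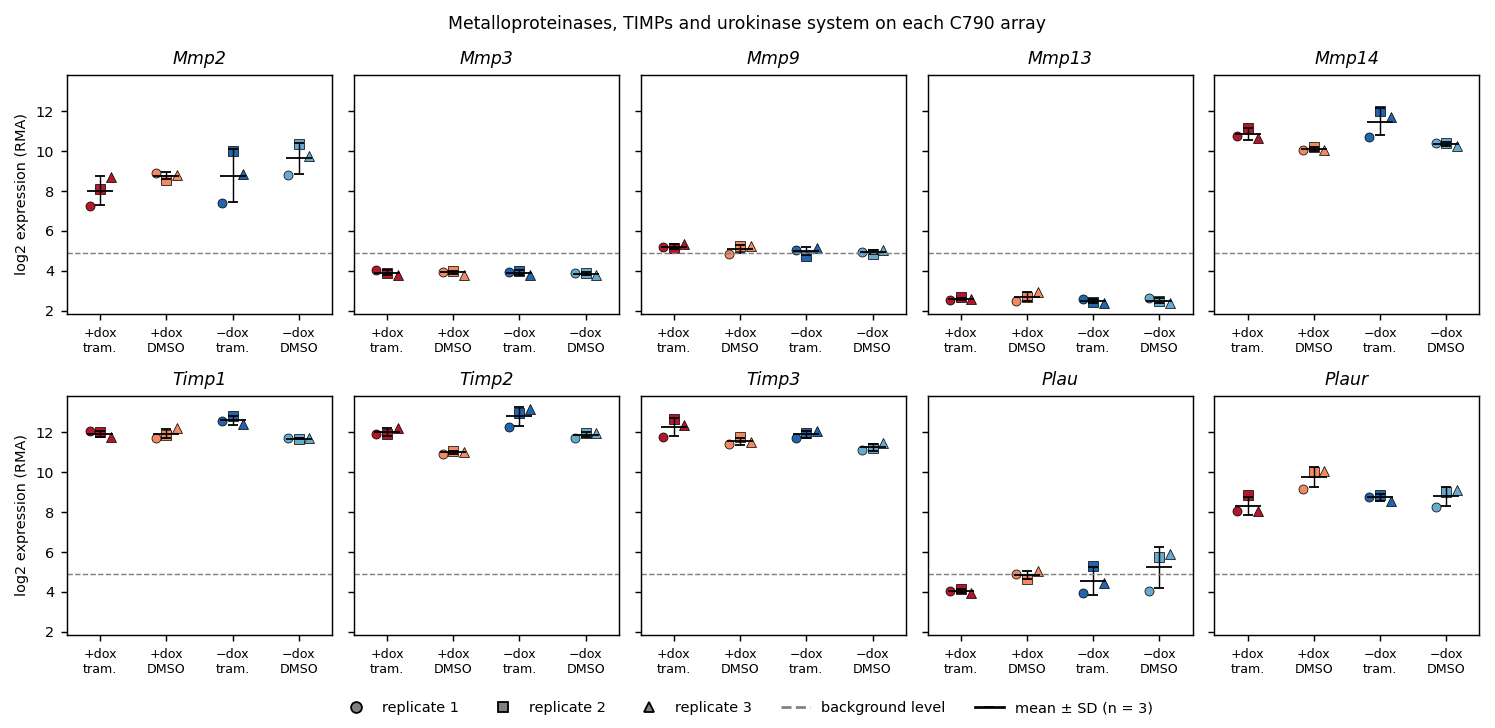
Log2 expression of the 10 genes on each array (y axis) in the 4 groups (x axis), with the mean and SD of 3 arrays as bars, symbols for the replicate number and a dashed line at the background level of 4.88. Mmp3 and Mmp13 lie under the line on all 12 arrays, Mmp9 and Plau lie close to it, and the 3 TIMPs lie between 10.93 and 13.17.

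Mmp2, the gelatinase that the MMP14 and TIMP2 complex helps to activate, was expressed in all 4 groups, but its arrays differed so much within a group that no comparison passed. It measured 7.24, 8.09 and 8.70 on the 3 +dox trametinib arrays, against 8.90, 8.56 and 8.82 on the +dox DMSO arrays. The −dox arrays gave 7.42, 10.03 and 8.87 with trametinib, against 8.82, 10.35 and 9.76 with DMSO. The groups overlapped in each comparison, and replicate 1 was the lowest array of 3 groups, the +dox DMSO group being the exception. The change with trametinib was -0.75 in +dox cells (95% interval -2.05 to 0.55, adjusted p = 0.431 from limma) and -0.87 in −dox cells (-2.17 to 0.43, adjusted p = 0.343 from limma). The change with dox was -0.88 under DMSO (adjusted p = 0.468 from limma) and -0.76 under trametinib (0.678). The other Mmp2 probe set gave changes of -0.92 to -0.74 in these 4 comparisons, none called.

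Mmp3 (stromelysin), Mmp13 (a collagenase) and Mmp9 (a further gelatinase) gave no signal, or a weak one, in any group. Mmp3 lay between 3.80 and 4.04 and Mmp13 between 2.39 and 2.96 over the 12 arrays, all under the background level, so their differences have no reading. Mmp9 had group means of 5.21 in +dox trametinib, 5.10 in +dox DMSO, 4.98 in −dox trametinib and 4.94 in −dox DMSO cells, just over the level, and its other probe set was under the level in all 4 groups. None of the 3 genes passed in any comparison. At this signal a fall, or a change that stays under the level, was not detectable. The highest array of the 3 genes read 5.34, for Mmp9, and no rise far above the level was seen.

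Mmp14, the membrane-anchored metalloproteinase that cuts collagen at the cell surface, was higher with trametinib, and the rise passed the test in −dox cells. RefSeq's GRCm38.p6 places the 250 bases before an annotated start of Mmp14 at chr14:54431348-54431597 on the plus strand, upstream of the gene. The windows before Mmp14, the TIMPs and Plaur are shown because AP-1 and ETS factors act through elements of this kind, with capitals for matches, on either strand, to the AP-1 element TGACTCA, to the PEA3 element AGGAAG of ETS factors and to the GC box GGGCGG. Over 32851 mouse windows of the same length, 4.46% held the AP-1 letters, 29.5% the PEA3 letters and 32.7% the GC box. A match is only a description of the letters. The Mmp14 window held 1 PEA3 match, 2 GC boxes and no AP-1 match.
Mmp14: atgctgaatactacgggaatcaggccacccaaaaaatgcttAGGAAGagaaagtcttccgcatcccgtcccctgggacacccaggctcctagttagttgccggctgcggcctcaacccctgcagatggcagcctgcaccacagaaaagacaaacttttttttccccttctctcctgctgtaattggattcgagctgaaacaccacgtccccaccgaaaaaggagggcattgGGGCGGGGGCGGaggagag

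Mmp14 measured 10.75, 11.18 and 10.65 on the +dox trametinib arrays, against 10.04, 10.22 and 10.07 on the +dox DMSO arrays. In −dox cells it measured 10.72, 12.01 and 11.71 with trametinib, against 10.42, 10.43 and 10.25 with DMSO. All trametinib arrays lay above all DMSO arrays in both cell states, and the trametinib arrays were spread more widely than the DMSO arrays. The −dox rise was 1.11 (SE 0.27, adjusted p = 0.0119 from limma), or 2.16-fold. In +dox cells the change was 0.75 (SE 0.27, adjusted p = 0.0614 from limma), which did not pass, and a replicate block took it past the threshold (adjusted p = 0.0325). Arrays that did not overlap, with trametinib above DMSO, were found for 2 of the 10 genes in +dox cells, where 22.1% of all genes showed this, and for 4 in −dox cells, where 20.4% did. The −dox rise did not pass without −dox trametinib replicate 3 (adjusted p = 0.0515) or in a fit of the −dox arrays alone (0.0605), and the +dox change passed without −dox trametinib replicate 1 (0.00351) or 2 (0.0332).

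The other Mmp14 probe sets moved the same way. All 3 were between 0.59 and 0.79 higher with trametinib in +dox cells, none called, and between 1.03 and 1.24 higher in −dox cells, 2 of 3 called in the fit over 34945 probe sets. With dox, Mmp14 changed by -0.26 under DMSO (adjusted p = 0.677 from limma), although no +dox DMSO array reached the lowest −dox DMSO array. Under trametinib it changed by -0.62 (adjusted p = 0.312 from limma), and by -1.0 without −dox trametinib replicate 1 (adjusted p = 0.00722), the lowest array of that group.

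Timp1, an inhibitor of most secreted metalloproteinases, rose with trametinib in −dox cells, while its change in +dox cells was about 0. The 250 bases before its start lie on the X chromosome, chrX:20869916-20870165 on the plus strand (GRCm38.p6), and held 2 PEA3 matches and 1 GC box, again in capitals.
Timp1: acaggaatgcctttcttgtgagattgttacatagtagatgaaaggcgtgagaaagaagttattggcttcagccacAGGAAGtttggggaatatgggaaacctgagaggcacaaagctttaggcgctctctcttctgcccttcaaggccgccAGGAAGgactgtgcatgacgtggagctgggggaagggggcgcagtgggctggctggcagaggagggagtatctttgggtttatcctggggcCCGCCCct

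Timp1 measured 12.04, 11.99 and 11.75 on the +dox trametinib arrays, against 11.72, 11.88 and 12.19 on the +dox DMSO arrays. For −dox cells the values were 12.57, 12.83 and 12.40 with trametinib, against 11.72, 11.64 and 11.69 with DMSO. The −dox trametinib arrays stood above all 9 others, and the −dox DMSO arrays were at or below the lowest array of the other groups. Its −dox rise was 0.92 (SE 0.14, adjusted p = 0.00106 from limma), 1.89-fold, and it passed without each array in turn. The +dox change was -0.003 (95% interval -0.32 to 0.31, adjusted p = 0.991 from limma). The test of the difference between these responses gave -0.92 (SE 0.20, unadjusted p = 0.000848 and adjusted p = 0.105 from limma), which did not pass over all genes.

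That difference was past the threshold without +dox DMSO replicate 1 (adjusted p = 0.0497) and with array weights (0.0147). Under trametinib Timp1 was lower in +dox than in −dox cells, by 0.67 on the log2 scale (SE 0.14, adjusted p = 0.0276 from limma). This call ended when any of the 3 +dox trametinib arrays was left out (adjusted p = 0.0592, 0.072 and 0.0915), or −dox trametinib replicate 2 (0.12), and in a fit of the trametinib arrays alone (0.0629). Under DMSO the change with dox was 0.25 (adjusted p = 0.388). Arrays that did not overlap, with +dox below −dox, were found for 2 of the 10 genes under trametinib, Timp1 and Timp2, where 10.6% of all genes showed this.

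Timp2, the inhibitor that also takes part in the activation of pro-MMP2, rose with trametinib in both cell states and was lower in +dox than in −dox cells under DMSO. Its window is at chr11:118355412-118355661 on the minus strand (GRCm38.p6) and held 1 GC box and neither of the other motifs.
Timp2: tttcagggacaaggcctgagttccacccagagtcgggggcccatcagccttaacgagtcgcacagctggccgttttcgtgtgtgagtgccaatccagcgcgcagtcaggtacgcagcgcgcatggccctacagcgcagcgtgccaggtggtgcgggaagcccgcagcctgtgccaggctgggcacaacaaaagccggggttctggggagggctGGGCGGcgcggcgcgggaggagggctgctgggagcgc

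Timp2 measured 11.90, 11.89 and 12.22 on the +dox trametinib arrays, against 10.93, 11.06 and 11.02 on the +dox DMSO arrays. The −dox values were 12.25, 12.99 and 13.17 with trametinib, against 11.73, 11.95 and 11.94 with DMSO. In both states all trametinib arrays lay above all DMSO arrays, and the +dox DMSO arrays were the lowest of the 12. The rise was 1.00 in +dox cells (SE 0.20, adjusted p = 0.00338 from limma), 2-fold, and 0.93 in −dox cells (SE 0.20, adjusted p = 0.00671 from limma). Both passed without each array in turn. The responses differed by 0.07 with a 95% interval of -0.55 to 0.69 (adjusted p = 0.952 from limma), and this difference had the other sign in the other 5 probe sets.

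Of the 6 Timp2 probe sets, all 6 were higher with trametinib in −dox cells in the fit over probe sets, by 0.93 to 1.44, and 3 of 6 in +dox cells, where the changes ran between 0.15 and 1.00. The mean of the 6 rose by 0.71 in +dox cells (adjusted p = 0.0453 from limma) and by 1.12 in −dox cells (0.00572), with a difference between the responses of -0.41 (0.722). In single probe sets that difference lay between -0.88 and 0.07, none called. The dimmest of the 6 was above the background level only in the −dox trametinib group. Under DMSO the dox change was -0.87 (SE 0.20, adjusted p = 0.0292 from limma), but 1 of 6 probe sets was called, with changes between -0.87 and -0.06, and the mean of the 6 gave -0.50 (adjusted p = 0.271). The call also ended when any of the 3 +dox DMSO arrays was left out (adjusted p = 0.0613, 0.0849 and 0.0945), or −dox DMSO replicate 2 (0.0759) or 3 (0.0876). Under DMSO the groups did not overlap with +dox above for 1 of the 10 genes, Plaur, and with +dox below for 2, Timp2 and Mmp14, where 11.3% and 11.1% of all genes showed this.

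Under trametinib the dox change of Timp2 was -0.80 (SE 0.20, adjusted p = 0.057 from limma), which did not pass, and a replicate block took it past the threshold (adjusted p = 0.0211). It also passed without −dox trametinib replicate 1 (change -1.08, adjusted p = 0.00148) and without −dox DMSO replicate 1 (0.0487). Fibroblast markers moved with the same comparisons. The mean log2 level of the 10 markers was 6.06 to 6.28 on +dox trametinib, 5.29 to 5.65 on +dox DMSO, 7.04 to 7.41 on −dox trametinib and 6.59 to 6.80 on −dox DMSO arrays. With dox under DMSO 5 of them fell (Col1a1, Col3a1, Pdgfra, Pdgfrb and Dcn), where 3.28% of all genes fell. With trametinib 3 rose in +dox cells while 5 rose and 1 fell in −dox cells, where 13.8% and 11.6% of all genes rose. Their part in the TIMP and Mmp14 values was not tested. On bulk RNA, fewer cells of a type and less RNA per cell cannot be told apart.

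Timp3, the inhibitor that binds to the matrix and also blocks several ADAM proteases, was higher with trametinib in both states, close to the threshold. Its window at chr10:86300162-86300411 on the plus strand (GRCm38.p6) held 1 PEA3 match and 1 GC box.
Timp3: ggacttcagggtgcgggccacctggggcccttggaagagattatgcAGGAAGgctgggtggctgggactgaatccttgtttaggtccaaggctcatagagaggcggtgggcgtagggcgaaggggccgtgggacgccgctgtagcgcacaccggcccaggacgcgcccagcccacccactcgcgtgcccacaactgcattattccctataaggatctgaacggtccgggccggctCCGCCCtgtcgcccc

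Timp3 measured 11.74, 12.66 and 12.39 on the +dox trametinib arrays, against 11.40, 11.75 and 11.49 on the +dox DMSO arrays. Values in −dox cells were 11.71, 11.94 and 12.05 with trametinib, against 11.10, 11.22 and 11.45 with DMSO. The groups overlapped in +dox cells through replicate 1 with trametinib and replicate 2 with DMSO, and did not overlap in −dox cells. The rise was 0.72 in +dox cells (SE 0.21, adjusted p = 0.0248 from limma), 1.64-fold, and 0.64 in −dox cells (SE 0.21, adjusted p = 0.0467 from limma), 1.56-fold. In +dox cells the call ended when +dox trametinib replicate 2 (adjusted p = 0.0972) or 3 (0.0822), or +dox DMSO replicate 1 (0.0807) or 3 (0.0768), was left out. It also ended in a fit of the +dox arrays alone (0.0542) and with the mean of the 4 probe sets (0.0694). In −dox cells it ended without each array in turn except +dox trametinib replicates 1 and 2, with adjusted p values up to 0.144, and after further quantile normalisation (0.0734).

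All 4 Timp3 probe sets were higher with trametinib, by 0.68 to 0.85 in +dox cells, 2 of 4 called, and by 0.64 to 1.37 in −dox cells, 1 of 4 called. The probe set with the largest of these changes read 6.86 on −dox DMSO replicate 1, against 8.81 and 8.97 on replicates 2 and 3 of that group. With dox, Timp3 changed by 0.29 under DMSO (adjusted p = 0.506 from limma) and 0.36 under trametinib (0.499), so its +dox means were the higher ones, where those of Timp2 were the lower ones.

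**Figure D2:**
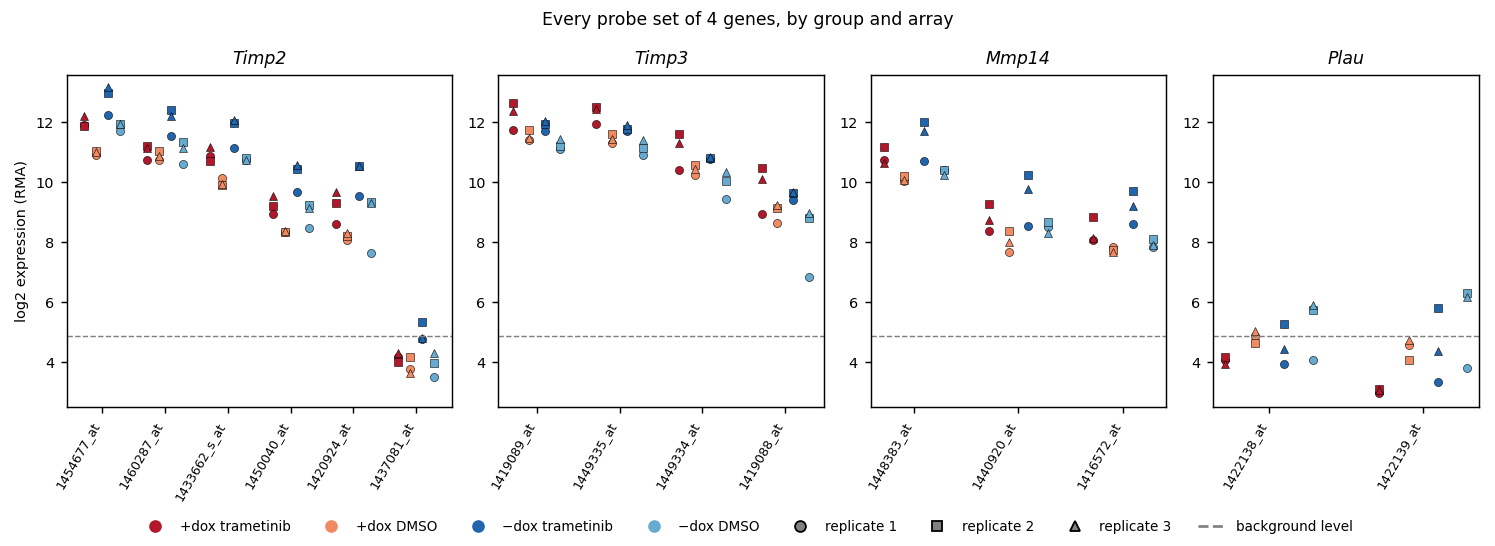
Log2 expression (y axis) of each probe set (x axis) of Timp2, Timp3, Mmp14 and Plau, with a colour for each group, a symbol for each replicate and a dashed line at the background level. For Timp2 all 6 probe sets have their −dox trametinib values above their −dox DMSO values, and several probe sets are lowest on −dox DMSO replicate 1.

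Plau, the gene of urokinase itself, lay near the background level, with its highest values on −dox arrays. It measured 4.07, 4.16 and 3.95 on the +dox trametinib arrays, against 4.88, 4.65 and 5.03 on the +dox DMSO arrays. The −dox arrays read 3.93, 5.28 and 4.44 with trametinib, against 4.06, 5.73 and 5.91 with DMSO. Only the −dox DMSO mean, 5.23, was above the level, and 5 of the 12 arrays were. In +dox cells the trametinib arrays lay below all DMSO arrays, as they did for Plaur, and these 2 of the 10 genes compare with 18.6% of all genes, but neither Plau mean was above the level. The −dox trametinib mean was under it, so that the −dox difference was a decrease of at least 0.36, which did not pass (adjusted p = 0.311 from limma). It passed without −dox DMSO replicate 1 (adjusted p = 0.0118), the lowest array of its group. The +dox difference, which has no size above the level, did not pass either (adjusted p = 0.235 from limma) and was past the threshold without that same array (0.046) and in a fit of the +dox arrays alone (0.00323). The other Plau probe set read 2.97, 3.10 and 3.06 on +dox trametinib arrays, against 4.57, 4.09 and 4.74 on +dox DMSO arrays, all under the level, and was not called (adjusted p = 0.178 over probe sets). On −dox arrays it read 3.34, 5.82 and 4.37 with trametinib, against 3.80, 6.32 and 6.17 with DMSO. Some of these were above the level, and the −dox difference was not called (adjusted p = 0.396 from limma over probe sets).

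Plaur, the urokinase receptor, was the only one of the 10 genes that fell with trametinib by the test, and it did so in +dox cells. Its window at chr7:24462233-24462482 on the plus strand (GRCm38.p6) held 1 AP-1 match, 1 PEA3 match and 3 GC boxes, of which 2 overlap by a base. Besides Plaur, only the windows of Mmp3 and Mmp13 held the AP-1 letters among the 7 of the 10 genes with a window, and both of those genes were under the background level here. Mmp2, Mmp9 and Plau were not matched.
Plaur: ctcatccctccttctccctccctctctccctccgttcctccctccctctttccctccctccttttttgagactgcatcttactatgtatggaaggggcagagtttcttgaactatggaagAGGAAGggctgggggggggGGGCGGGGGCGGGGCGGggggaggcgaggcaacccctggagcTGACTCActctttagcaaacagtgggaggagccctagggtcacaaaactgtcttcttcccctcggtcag

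Plaur measured 8.04, 8.84 and 8.08 on the +dox trametinib arrays, against 9.16, 10.02 and 10.05 on the +dox DMSO arrays. The −dox readings were 8.78, 8.86 and 8.56 with trametinib, against 8.25, 9.00 and 9.10 with DMSO. The +dox DMSO arrays stood above all 9 others, and the other 3 groups overlapped. In +dox cells the change was -1.42 (SE 0.30, adjusted p = 0.00434 from limma), or 2.68-fold lower with trametinib, and it passed without each array in turn. The −dox change was -0.05 (95% interval -0.71 to 0.61, adjusted p = 0.93 from limma). The difference between the responses was -1.37 (SE 0.42, unadjusted p = 0.00755 and adjusted p = 0.209 from limma), so the lack of a call in −dox cells does not show that the states differ.

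With dox, Plaur under DMSO changed by 0.96 (SE 0.30), with no overlap between the groups but an adjusted p of 0.0875 from limma, which did not pass. It passed when the replicate number entered as a block (adjusted p = 0.0286), as it did without +dox DMSO replicate 1 (change 1.25, adjusted p = 0.0273). Under trametinib the dox change was -0.41 (adjusted p = 0.639 from limma). The order of the 4 group means was +dox DMSO at 9.74, −dox DMSO at 8.78, −dox trametinib at 8.73 and +dox trametinib at 8.32, and the lower 3 did not separate from their neighbours.

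A leukocyte marker, Itgam, moved with Plaur. The mean log2 level of the 10 such markers measured was 4.56 to 4.72 on +dox trametinib, 4.75 to 5.14 on +dox DMSO, 4.66 to 4.86 on −dox trametinib and 4.65 to 4.87 on −dox DMSO arrays. Itgam, an integrin subunit of myeloid cells, measured 3.60, 3.83 and 3.74 on +dox trametinib arrays, against 4.19, 6.90 and 5.72 on +dox DMSO arrays, and 2.97 to 3.31 on the −dox arrays. Its mean was above the background level in +dox DMSO cells alone, and replicate 1 was the lowest array of that group for Itgam as for Plaur. It fell with trametinib in +dox cells by at least 0.73 (adjusted p = 0.0131 from limma) and was higher with dox under DMSO by at least 0.73 (0.0136). Cd68, a lysosomal protein of macrophages, changed by -1.74 (adjusted p = 0.0613 from limma) and 1.43 (0.226) in these comparisons, and neither passed. Of the 10 markers 0 rose and 1 fell with trametinib in +dox cells, while with dox under DMSO 1 rose and 1, Cd14, fell. Of all genes 26.2% passed in the first of these comparisons and 6.15% in the second. Their part in the Plaur values was not tested, and Ptprc averaged 2.81 to 2.95 over the 4 groups.

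**Figure D3:**
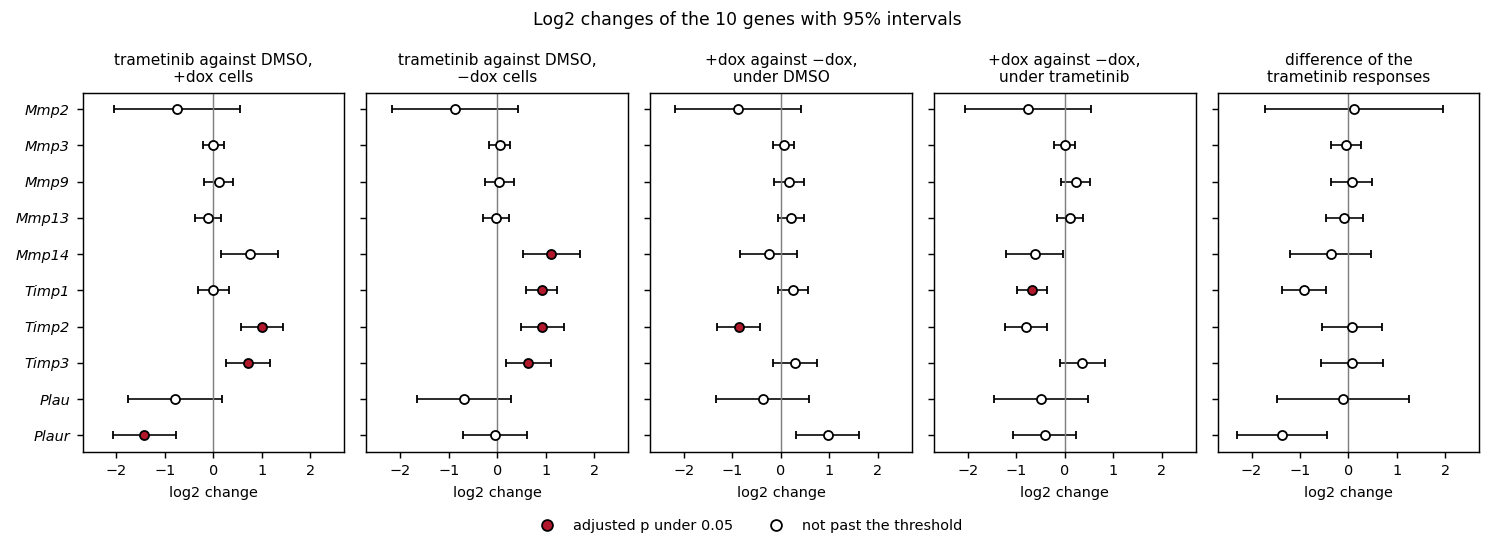
Log2 changes of the 10 genes (x axis) with 95% intervals from the limma fit, 1 panel for each of 5 comparisons, filled where the adjusted p was under 0.05. Filled points are Timp2, Timp3 and Plaur for trametinib in +dox cells, Mmp14 and the 3 TIMPs in −dox cells, Timp2 for dox under DMSO and Timp1 for dox under trametinib, and the panel of the difference has none. Points are fitted values, and for Mmp3, Mmp13 and Plau some or all group means were under the background level.

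Whether the trametinib response differed between +dox and −dox cells was tested for each gene, and 0 of the 10 passed, where 0.33% of all genes passed, 0.258% higher and 0.0715% lower. Timp1 and Plaur were the 2 of 10 at an unadjusted p under 0.05, and with array weights 1 of 10, Timp1, passed after adjustment. The comparisons share arrays, so their values are given side by side and not as separate evidence. Over the group means, Mmp14 and Timp2 had the same order, highest in −dox trametinib, then +dox trametinib, −dox DMSO and +dox DMSO cells. For Timp2 the −dox trametinib arrays separated from the +dox trametinib arrays, and the −dox DMSO from the +dox DMSO arrays. For Mmp14 the 2 trametinib groups overlapped.

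In the rest of the metalloproteinase family only Mmp11 and Mmp19 passed in a comparison between groups. Of 18 further genes 13 were measured, 7 of them above the background level in some group. With trametinib 2 rose and 0 fell in +dox cells, and 1 rose and 0 fell in −dox cells. Over all genes 26.2% passed in +dox cells, 13.8% higher and 12.5% lower, and 22.4% in −dox cells, 11.6% higher and 10.8% lower. Mmp11, stromelysin 3, rose in both states. It measured 9.40, 9.55 and 9.72 on +dox trametinib arrays, against 7.87, 7.99 and 7.97 on +dox DMSO arrays. In −dox cells it measured 9.58, 9.88 and 10.13 with trametinib, against 8.52, 8.15 and 8.54 with DMSO. All trametinib arrays lay above all DMSO arrays in each state. The rise was 1.61 in +dox cells (SE 0.15, adjusted p = 3.76e-05 from limma) and 1.46 in −dox cells (SE 0.15, adjusted p = 0.000123 from limma).

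Mmp19, a further secreted metalloproteinase, was lower with dox. Under DMSO it measured 5.81, 4.06 and 5.58 on +dox arrays, against 7.78, 8.13 and 8.30 on −dox arrays. Under trametinib it measured 6.35, 6.22 and 6.43 on +dox arrays, against 8.58, 8.71 and 8.16 on −dox arrays. The +dox arrays were below all −dox arrays under each treatment. The change was -2.92 under DMSO (SE 0.37, adjusted p = 0.00129 from limma) and -2.15 under trametinib (adjusted p = 0.00853 from limma), and in +dox cells trametinib raised it by 1.18 (adjusted p = 0.0329 from limma). That last call ended without any single +dox trametinib array (adjusted p = 0.0633 to 0.0894). Mmp7 and Mmp16, both close to the background level, did not pass in any comparison, but Mmp16 was past the threshold with trametinib in +dox cells without −dox DMSO replicate 1 (change 0.50, adjusted p = 0.0277). With dox, 0 rose and 1 fell, Mmp19, under either treatment, where 6.15% of all genes passed under DMSO and 3.37% under trametinib.

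Among 8 other inhibitors and cofactors of metalloproteinases, all measured, 1 rose and 1 fell with trametinib in +dox cells and none passed in the other 3 comparisons. Of all genes 26.2% passed with trametinib in +dox cells, 22.4% in −dox cells, and with dox 6.15% under DMSO and 3.37% under trametinib. Reck, a membrane-anchored inhibitor of MMP2, MMP9 and MMP14, rose in +dox cells by 1.31 (SE 0.25, adjusted p = 0.00258 from limma), and averaged 9.56 ± 0.29 with trametinib and 8.25 ± 0.53 with DMSO (SD, n = 3 each). In −dox cells its change was 0.68 (adjusted p = 0.0769 from limma). Without +dox DMSO replicate 1 this passed (adjusted p = 0.0222), as did its change with dox under DMSO (-0.94, adjusted p = 0.0222). Thbs2, a matricellular protein that binds MMP2, changed in +dox cells by -0.66 (adjusted p = 0.0382 from limma), a call that ended without each single +dox array (0.0548 to 0.123) and without −dox trametinib replicate 3 (0.053). In −dox cells it passed only when −dox trametinib replicate 2 was left out (change -0.75, adjusted p = 0.0416). Thbs1, its relative, changed by 1.05 in +dox cells (adjusted p = 0.0957 from limma) and by 1.26 in −dox cells (0.0537), and neither passed. Without −dox trametinib replicate 1 both passed, with an adjusted p of 0.0335 in +dox cells and of 0.00691 in −dox cells, the +dox change passed without −dox DMSO replicate 1 (0.0486) and the −dox change without −dox DMSO replicate 2 (0.0467).

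Of 16 further genes of plasminogen activation 13 were measured, and none passed with trametinib in either state. Of all genes 26.2% passed there in +dox and 22.4% in −dox cells. With dox 0 rose and 1 fell under each treatment, where 6.15% of all genes passed under DMSO and 3.37% under trametinib. The gene was Plat, the tissue plasminogen activator. Under DMSO Plat measured 6.37, 5.66 and 5.62 on +dox arrays, against 6.93, 9.02 and 8.72 on −dox arrays. Under trametinib it measured 4.88, 5.70 and 4.82 on +dox arrays, against 7.59, 8.08 and 7.07 on −dox arrays. The groups did not overlap under either treatment, and −dox DMSO replicate 1 was the lowest −dox array. The change was -2.34 under DMSO (SE 0.49, adjusted p = 0.0189 from limma) and -2.45 under trametinib (adjusted p = 0.02 from limma). The call under DMSO ended without replicate 2 or 3 of either DMSO group (adjusted p = 0.0585 to 0.0807), and that under trametinib without +dox trametinib replicate 1 or 3 or −dox trametinib replicate 2 (0.0662 to 0.0938). With trametinib in −dox cells Plat was past the threshold without −dox DMSO replicate 1 (change -1.29, adjusted p = 0.0215). Lrp1, the endocytic receptor that clears urokinase complexes, changed by -1.25 under DMSO (adjusted p = 0.0521 from limma), where −dox DMSO replicate 1 read 11.70, against 10.63 and 10.65 on replicates 2 and 3. Its change was -0.89 without that array (adjusted p = 0.117), and it passed without −dox trametinib replicate 1 (0.0221). S100a10, a plasminogen receptor subunit, changed by 0.41 under trametinib (adjusted p = 0.0902 from limma) and passed without −dox DMSO replicate 1 (0.0329).

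Of 10 AP-1 subunits measured, 3 rose and 1 fell with trametinib in +dox cells, and 3 rose and 2 fell in −dox cells. Of all genes 26.2% passed there in +dox and 22.4% in −dox cells, also in both directions. With dox 0 rose and 2 fell under each treatment, where 6.15% of all genes passed under DMSO and 3.37% under trametinib. Fosl1, which encodes FRA-1 and is an ERK target, measured 4.72, 4.88 and 4.89 on +dox trametinib arrays, against 7.55, 8.94 and 9.48 on +dox DMSO arrays. It measured 5.79, 5.37 and 5.06 on −dox trametinib arrays, against 7.14, 7.71 and 7.37 on −dox DMSO arrays. The +dox trametinib mean was under the background level, so the fall there was at least 3.78 (adjusted p = 5.7e-05 from limma). In −dox cells it fell by 2.00 (SE 0.39, adjusted p = 0.00366 from limma), and the difference between these responses did not pass (adjusted p = 0.202 from limma). It was past the threshold without +dox DMSO replicate 1 (adjusted p = 0.0124), as was the change with dox under DMSO (1.25, adjusted p = 0.0878, and 1.80, adjusted p = 0.00229, without that array). Fosl1 and Plaur each had their highest group mean in +dox DMSO and their lowest in +dox trametinib cells, while Fosl1 alone passed in −dox cells.

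Fosl2, which encodes FRA-2, rose by 1.26 in +dox cells (adjusted p = 0.000132 from limma) and by 1.44 in −dox cells (0.000105). Atf3, a stress-induced partner of JUN proteins, rose by 2.21 in +dox cells (adjusted p = 0.000923 from limma) and by 3.53 in −dox cells (9.61e-05). Fos, an immediate early gene, fell in −dox cells by 1.39 (adjusted p = 0.0456 from limma), and in +dox cells its change was -0.96 (0.152). The −dox call ended without any single −dox array other than trametinib replicate 1, and without +dox trametinib replicate 3 or +dox DMSO replicate 2 or 3 (adjusted p = 0.0542 to 0.149), while the +dox change passed without +dox trametinib replicate 1 (0.0368). With dox, Fosl2 changed by -0.67 under DMSO (adjusted p = 0.0237 from limma) and -0.85 under trametinib (0.00938), and the call under DMSO ended without replicate 2 or 3 of either DMSO group (0.0527 to 0.0863).

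Of 17 ADAM and ADAMTS proteases 16 were measured, all above the level in some group. With trametinib 4 rose and 3 fell in +dox cells, and 4 rose and 1 fell in −dox cells. Of all genes 26.2% passed there in +dox and 22.4% in −dox cells. With dox 3 rose and 2 fell under DMSO, where 6.15% of all genes passed. Under trametinib 1 rose and 2 fell, where 3.37% passed. Adam19, a membrane-bound sheddase, measured 8.69, 9.06 and 8.33 on +dox trametinib arrays, against 6.32, 6.23 and 6.06 on −dox trametinib arrays. Under DMSO it measured 8.26, 8.74 and 8.39 on +dox arrays, against 7.92, 7.15 and 7.31 on −dox arrays. Its +dox arrays lay above its −dox arrays under each treatment, by 2.49 with trametinib (SE 0.22, adjusted p = 0.000143 from limma) and 1.00 with DMSO (adjusted p = 0.0254 from limma). Trametinib lowered it in −dox cells by a change of -1.26 (adjusted p = 0.00222 from limma). Adam23, an ADAM without protease activity, changed by -1.26 with trametinib in +dox cells (adjusted p = 0.00523 from limma) and by 1.23 with dox under DMSO (0.025). Under DMSO the Adam19 call ended without replicate 2 or 3 of either group (adjusted p = 0.0758 to 0.108), and the Adam23 call without +dox replicate 2 or 3 or −dox replicate 1 or 2 (0.0582 to 0.107). Adamts1, a protease of proteoglycans, passed in no comparison over all arrays, but without −dox trametinib replicate 1 it was past the threshold with trametinib in −dox cells (change 1.63, adjusted p = 0.0272) and with dox under trametinib (-1.97, adjusted p = 0.0315).

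**Figure D4:**
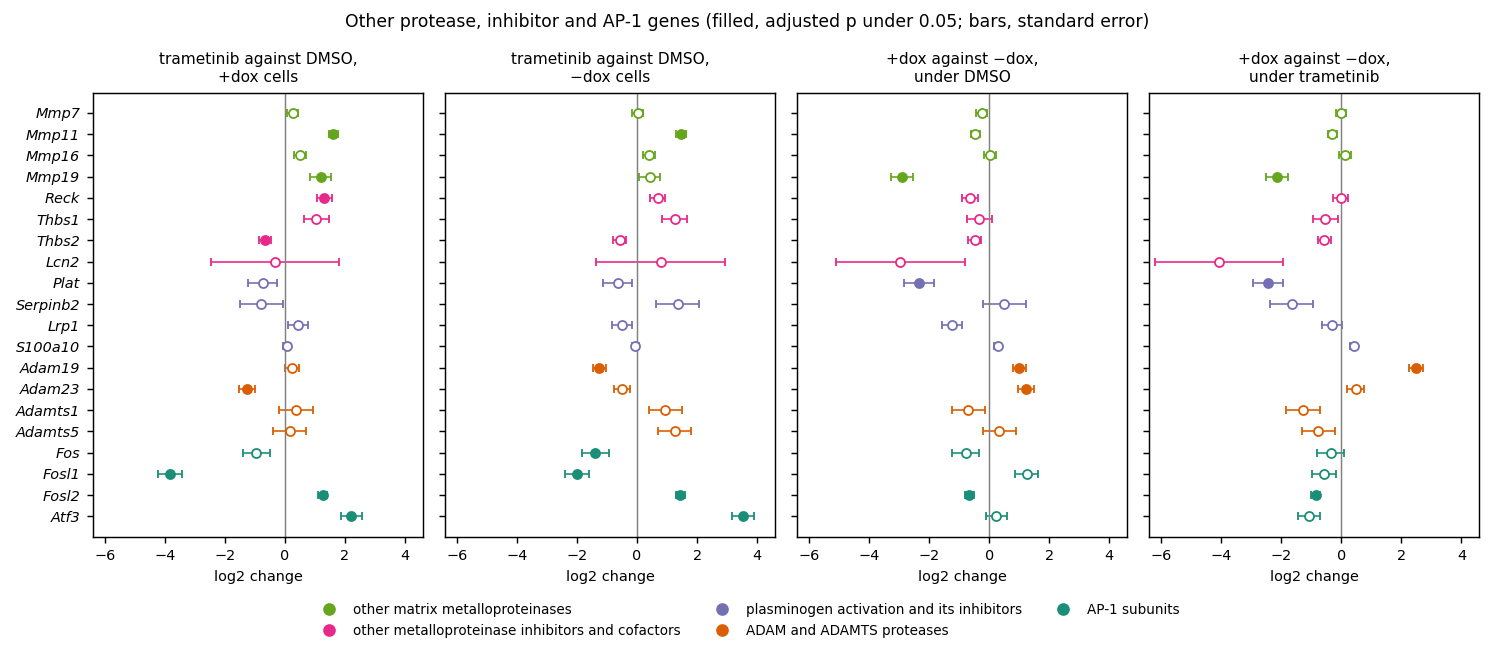
Log2 changes (x axis, with SE as bars) of the 20 named genes of the 5 further lists in the 4 comparisons between groups, coloured by list and filled where the adjusted p was under 0.05. Mmp11, Fosl2 and Atf3 lie right of 0 and Fosl1 left of it in both trametinib panels, and Mmp19 and Plat lie left of 0 in both dox panels. Points of Fosl1, Lcn2, Serpinb2 and Mmp7 that rest on a mean under the background level are fitted values. Of these only the fall of Fosl1 with trametinib in +dox cells passed, and its size is a lower bound of 3.78.

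Genes whose pattern over the 12 arrays was most like that of a member were listed by Pearson's r over 12446 genes above the background level in some group, as a description in which all points share the same 12 arrays. For Plaur they were P2ry2, Coq3 and Rnmt (r = 0.98, 0.967 and 0.967). For Mmp14 they were Ube2j1, Ltbr and Chpf (0.972, 0.961 and 0.957), and for Timp2 Casp9, Phf23 and Vdr (0.967, 0.965 and 0.964). For Timp3 they were Paqr8, Mkln1os and Ebp (0.947, 0.925 and 0.914). For Mmp2 they were P3h3, Tenm3 and Fam102b (0.95, 0.938 and 0.938), and for Plau Acsl3, Nostrin and Ckb (0.961, 0.944 and 0.944). Mmp3, Mmp9, Mmp13 and Timp1 had group means that spanned less than 1 on the log2 scale and were left out.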

How the data were processed

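Total RNA of C790 cells was put on 12 Affymetrix mouse genome arrays, with 3 per group. RMA normalisation was done by the authors, with the Chipster software. The deposited values are log2 intensities of probe sets, between 2.16 and 14.46. Of 45101 probe sets, 64 controls, 932 annotated to several genes and 9160 to none were left out. RMA gives no detection calls, so signals near the background level of 4.88 (95th percentile of the means of 83 receptor probe sets) carry little information, and the number of arrays limits the precision. No low-value filter was applied.

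The test was limma 3.58.1 (lmFit and eBayes, in R 4.3.3). The model had 4 group means, took in all 12 arrays, and its p-values got a Benjamini-Hochberg adjustment over the 18193 genes of each of 5 comparisons. Probe sets were tested in a like fit, adjusted over 34945. Where 1 of the 2 means was under the background level, the size of a change that passed is printed as a lower bound, from the level to the other mean.

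Deviations from the group means correlated by over 0.1 in each of 3 same-numbered pairs for trametinib in +dox cells (0.16 to 0.451), dox under DMSO (0.17 to 0.344) and dox under trametinib (0.212 to 0.286), while trametinib in −dox cells gave 0.0221 to 0.456. The main fit had no block, and the replicate numbers entered as a block only in an alternative fit. For these 3 comparisons with all pairs above 0.1, reading the numbers as pairs rests on these correlations, since no label says it. For the metalloproteinases, TIMPs and urokinase pair listed at the start, the blocked value is given where it changes a call. No blocked value is given for the genes of the further lists, so whether the block changes their calls is not shown. No 2 arrays held identical values, and the lowest correlation between arrays was 0.953.

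All 10 genes are named. Of each further list, up to 4 genes with the largest change between groups among those above the background level are named, and for each of the 10 genes whose group means span 1 or more, the 3 genes with the highest correlation. The genes and lists were chosen with earlier results of these data known. The model was tested on simulated data. Upstream sequences are from RefSeq (GRCm38.p6), with 7 of 10 genes matched. Plots used matplotlib 3.10.9 (Python 3.11.15). Alternatives are listed in the closing section.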

Additional observations from a re-analysis of the deposited data

How the results depend on the processing

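Each of the 10 genes was recomputed in each comparison under the alternatives. Of 1120 such values, 1046 kept direction and side of the threshold, 49 were no longer past it, 25 moved past it and 0 of the called changes reversed, while 54 changes that were not called had the other sign. Genes called are given here as counts of 10, against 3 for trametinib in +dox cells, 4 for trametinib in −dox cells, 1 for dox under DMSO, 1 for dox under trametinib and 0 for the difference between responses. With the replicate block the counts were 4, 4, 2, 2 and 0, and the block changed no call besides those of Mmp14, Plaur and Timp2 given above. With only the arrays of the compared groups 0 were called for dox under trametinib. With the mean of probe sets 0 were called for dox under DMSO. With only genes above the background level, and with trended and robust eBayes, 2 were called for dox under trametinib. With array weights 4 were called for dox under DMSO, 2 for dox under trametinib and 1 for the difference. With a fold change over 2 as well, 1, 1, 0 and 0 were called in the first 4 comparisons. At an adjusted p under 0.01, 2 were called for trametinib in −dox cells and 0 in both dox comparisons. With an equal-variance t-test of each gene, 1 was called for trametinib in −dox cells and 0 in both dox comparisons. Leaving out each array in turn gave 2 to 4, 2 to 4, 0 to 1, 0 to 3 and 0 to 1.

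Further quantile normalisation and centring on the median moved no count by over 1.5 times. Over all genes, 4772, 4072, 1118, 614 and 60 were called, and counts that moved by over 1.5 times were 141 for the difference with the replicate block, 550 for dox under DMSO with only the compared arrays, 7131, 4086, 1427 and 1066 from the second comparison on with array weights, 1754, 1384, 476 and 359 with the fold threshold, 3090, 2230, 366, 248 and 11 at an adjusted p under 0.01, and 2877, 1479, 8 and 0 with the t-test. Without single arrays they ran over 465 to 1297 for dox under DMSO, 295 to 964 for dox under trametinib and 13 to 200 for the difference, the highest 2 without −dox DMSO replicate 1. The cause was not tested. Weights gave −dox DMSO replicate 1 the lowest value, 0.195. Calls gained besides those given above were Mmp14 with trametinib in +dox cells with only the compared arrays (adjusted p = 0.00887), only genes above the background level (0.0485) and array weights (0.0186), and, with array weights, Plau with trametinib in −dox cells (0.00156) and, with dox under DMSO, Mmp13 (0.0132), Plau (0.018) and Plaur (0.0139). Timp2 with dox under trametinib passed with only genes above the level (0.0496), array weights (0.00479) and trended and robust eBayes (0.044). For the 20 named genes of the other lists, leaving out each array was chosen after seeing the data. Of 1200 values 37 lost and 16 gained a call, and 0 called changes reversed. Mmp3, Mmp13, Mmp9 and Plau are limited by signals at or near the background level.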

Other observations

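Lcn2, whose product lipocalin 2 binds and stabilises MMP9, was very unevenly expressed within the −dox groups. It measured 12.35, 5.72 and 5.57 on −dox trametinib replicates 1, 2 and 3, against 12.59, 4.26 and 4.44 on −dox DMSO replicates 1, 2 and 3. On the +dox arrays it measured 3.89, 3.75 and 3.76 with trametinib, against 4.40, 3.42 and 4.59 with DMSO. The high values were those of replicate 1 in −dox cells under both treatments, and the +dox arrays with the same number were under the background level. Both +dox means were under the background level, and the −dox means stood 2.22 above that level under DMSO and 3.00 above it under trametinib. These −dox means rest on replicate 1, and under DMSO replicates 2 and 3 of the −dox group were under the level, as the +dox arrays were. Neither difference passed the test (adjusted p = 0.509 under DMSO and 0.441 under trametinib from limma), so no least size of a change with dox is given. Serpinb2, which encodes the urokinase inhibitor PAI-2, was also high on a −dox replicate 1 array, at 7.13, 4.21 and 3.38 on −dox trametinib replicates 1, 2 and 3, against 3.58, 3.59 and 3.49 on −dox DMSO arrays. These 2 genes were singled out after their values were seen. On both −dox replicate 1 arrays Mmp2, Plau, Timp2 and Timp3 had their lowest value within the group. There Mmp2 read 7.42 with trametinib and 8.82 with DMSO, and Plau 3.93 with trametinib and 4.06 with DMSO. Timp2 read 12.25 with trametinib and 11.73 with DMSO, and Timp3 11.71 with trametinib and 11.1 with DMSO. Mmp3, Mmp9, Mmp13, Mmp14, Timp1 and Plaur were not lowest on both arrays.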
